A study of Mus musculus with 2 samples.

Results

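Classical cadherins were followed across the cell classes of the embryonic mouse eye cup. The members were 8 genes chosen by symbol, Cdh1, Cdh2, Cdh3, Cdh4, Cdh5, Cdh6, Cdh8 and Cdh11, out of 31053 genes in the count matrices, and all 8 were found in both libraries. Single-cell RNA-seq had been carried out on 3 pooled eye cups per genotype at e15.5, with cornea, lens and optic nerve removed. Control embryos were Myrf fl/fl, with loxP sites in both Myrf copies. Mutant embryos were Rx>cre Myrf fl/fl and also carried Cre under Rx regulatory sequence, which is active in the early eye field, the source of the neural retina and of the retinal pigment epithelium (RPE). The loxP-flanked Myrf alleles were thus shared by both genotypes. Blood, vessels, muscle, immune cells, surface epithelium and most of the periocular mesenchyme do not derive from the eye field. There was 1 library per genotype, so no difference between genotypes has a replicate check, no test was made, and each interval is a 95% interval for counting error only. The embryos of a pool cannot be told apart in these counts.

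Classical cadherins are calcium-dependent adhesion proteins that span the membrane and bind cadherins on the neighbouring cell. Their cytoplasmic tails hold β-catenin and p120-catenin, and α-catenin links the complex to actin. Cells with different cadherins tend to sort apart, so the family is known for shaping layers and boundaries during eye development. Cdh1, Cdh2, Cdh3 and Cdh4 are type I members, and Cdh6, Cdh8 and Cdh11 are type II members, with the endothelial Cdh5 usually placed beside them.

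The control library held 13017 barcodes and 132436812 unique molecular identifiers (UMIs, which count captured transcripts once), and the mutant library 13880 barcodes and 135678970 UMIs. After filtering, 11518 control and 12576 mutant cells remained, and 59 barcodes of these cells occurred in both libraries. Cells were grouped without the cadherins and named from markers into 16 classes, each written with the ending "-like", while 7 of 32 clusters, with 32.1% of control and 28.6% of mutant cells, stayed unnamed. Levels are given as CPM, the UMIs of a gene per 1000000 UMIs of the class. Myrf had 293 and 56 UMIs in RPE-like cells, or 77.5 and 29.7 CPM in control and mutant, a ratio of 0.384 (0.283 to 0.512); which exons lie between the loxP sites is not given in the sources used here. UMIs of Y-linked genes were found in 0.0261% of control and 41.7% of mutant cells, so the sex of the embryos and the genotype cannot be told apart except in the alternative restricted to cells with Xist. The 367 control and 207 mutant RPE-like cells had melanin genes (Pmel at 7812 and 7625 CPM, Dct at 2302 and 2298 CPM) and the retinoid-binding Rlbp1 at 342 and 225 CPM, but the visual cycle gene Rpe65 had 0 UMIs in both libraries.

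The 8 cadherins divided the eye cup between them, and each had its highest class level in the same class in both libraries. Cdh1 led in surface epithelium-like cells, Cdh2 and Cdh4 in retinal progenitor-like cells, Cdh3 in RPE-like cells, Cdh5 in endothelial-like cells, Cdh6 in Schwann precursor-like cells, Cdh8 in neurogenic progenitor-like cells and Cdh11 in periocular mesenchyme-like cells. The plot of levels by class shows this division. The leading class of some members depended on which cells were kept. With cells over 2000 UMIs removed, which left at most 19 cells of their leading classes in a library, Cdh1, Cdh6, Cdh8 and Cdh11 were led by another class in both libraries. Without cells with markers of another class, which left 9 control and 7 mutant Schwann precursor-like cells, mesenchyme-like cells led Cdh6 in both libraries and surface epithelium-like cells led Cdh3 in the mutant. In cells with Xist but without Y-linked UMIs, mesenchyme-like cells led Cdh6 in the mutant, where 12 Schwann precursor-like cells were left. With each library clustered alone no mutant cluster was named RPE-like, and melanocyte-like cells led mutant Cdh3. That melanocyte-like class held 236 mutant cells, against 30 melanocyte-like and 207 RPE-like mutant cells in the main setting. It is therefore not the melanocyte-like class described below. RNA free in the cell suspension was estimated at 0.277% to 0.645% of the UMIs of a class from haemoglobin counts, after the 5% of cells richest in haemoglobin had been left out, a choice made after the data had been seen. At that share it would give at most 1.14 CPM of any member, reached for Cdh11. With those cells kept the estimate reached 29.7%, which would give 50.45 of the 115 CPM of Cdh2 in mutant photoreceptor precursor-like cells and 43.3 of the 46.2 CPM of Cdh11 in mutant RPE-like cells. For Cdh2 in control surface epithelium-like cells it would give 22.7 CPM, more than the 6.82 CPM measured. Levels of different genes are not compared here as amounts of RNA, since 3′ tags of different genes may be captured unequally.

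**Figure D1:**
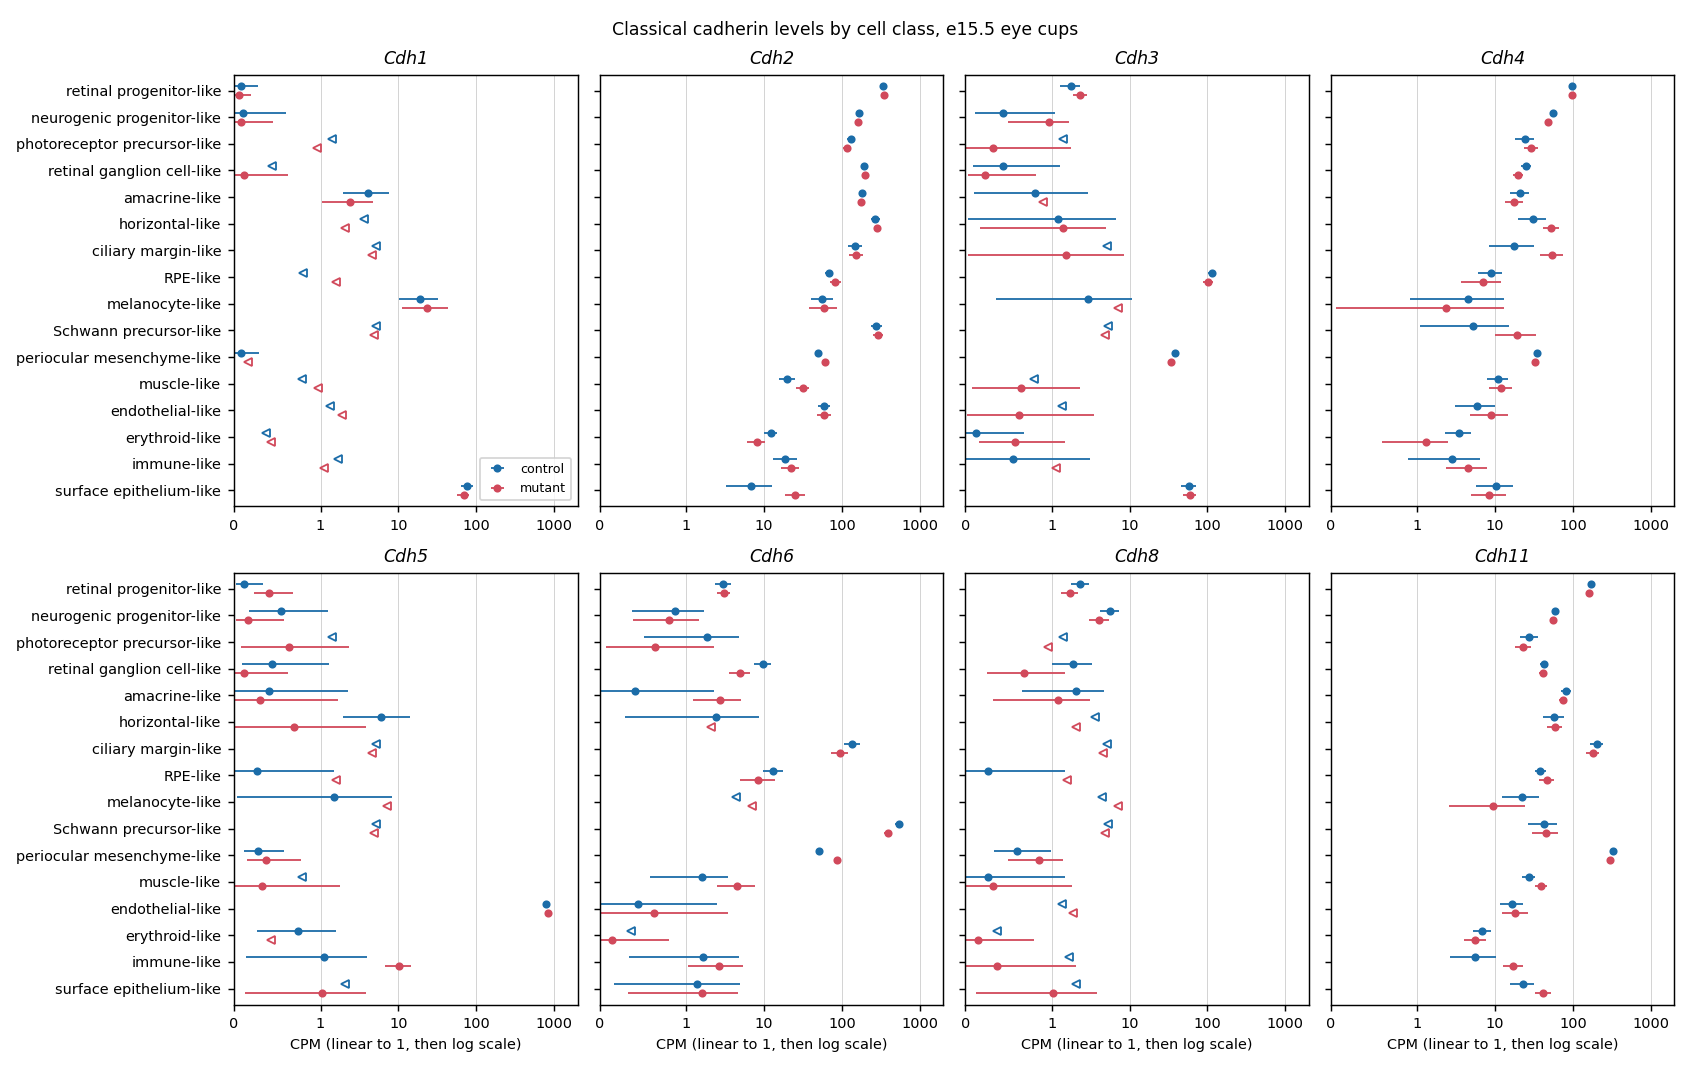
Level of each cadherin in each of the 16 cell classes, in CPM on an axis that is linear up to 1 and logarithmic above, with 1 panel per gene. Blue circles are the control and red circles the mutant library, bars are 95% Poisson counting intervals, and open triangles mark classes with 0 UMIs, drawn at the limit that 3 counts would give. Cdh5 stands alone at 787 and 839 CPM in endothelial-like cells, while Cdh2, Cdh4 and Cdh11 have UMIs in every class.

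Of the type I cadherins, Cdh1 (E-cadherin, the adhesion protein of most epithelia; ENSMUSG00000000303, GRCm38 chr8:106603351-106670246, plus strand) was the most restricted. Surface epithelium-like cells held 112 control and 130 mutant UMIs, or 76.4 CPM (62.9 to 91.9) and 68.6 CPM (57.3 to 81.4), and 78.9% and 85.0% of all Cdh1 UMIs. Cdh1 was detected in 58.3% of the 84 control cells and 52.7% of the 112 mutant cells of that class, and after thinning each cell to 2000 UMIs, which left out 6 and 9 shallower cells, in 16.7% and 7.77%. Melanocyte-like cells came next with 19.1 and 23.5 CPM, on 13 and 10 UMIs, and amacrine-like cells after them with 4.06 and 2.39 CPM. The intervals of these 3 classes did not overlap in either library. The RPE, although an epithelium, had 0 Cdh1 UMIs in both libraries. At this depth 3 counts would be 0.793 CPM (control) and 1.59 CPM (mutant).

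Cdh3 (P-cadherin; ENSMUSG00000061048, chr8:106510891-106557297, plus strand) lies 46053 bases before Cdh1 on the same strand, and its human counterpart is mutated in a juvenile macular dystrophy with sparse hair. It was the cadherin led by the RPE. RPE-like cells had 428 control and 191 mutant UMIs, or 113 CPM (103 to 124) and 101 CPM (87.5 to 117), found in 45.8% and 35.3% of cells. These cells differed in depth, with medians of 6940 and 3552 UMIs, and after thinning the shares were 20% and 16.3%, with 122 and 84 cells left out. Surface epithelium-like cells followed with 58.0 and 59.1 CPM, and periocular mesenchyme-like cells with 37.7 and 33.6 CPM. Mesenchyme nevertheless held the most Cdh3 UMIs, 49.1% and 46.6% of them in control and mutant, because it held many more cells. Melanocyte-like cells, the other pigmented class, had 2 control UMIs (2.94 CPM) and 0 mutant UMIs. The 0 in 30 cells would allow up to 10.0% of cells with a Cdh3 UMI, which is no limit on the cells that express it. The UMIs of Cdh3 thus lay mainly in the RPE of the pigmented classes, whereas Cdh1 UMIs were found in melanocyte-like cells and not in RPE-like cells. The study predicted Cdh3 as a target of SOX10 from RPE cells that included these libraries, so the values here are no independent evidence on that list.

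Cdh2 (N-cadherin, the main cadherin of neural tissue; ENSMUSG00000024304, chr18:16588877-16809246, minus strand) was the broadest type I member. Retinal progenitor-like cells had 8930 and 12504 UMIs, 339 CPM (332 to 346) and 342 CPM (336 to 348). A UMI was found in 91.3% and 90.0% of them, and in 48.2% and 48.4% after thinning, which left out 39 and 68 cells. Erythroid-like cells, which should lack the gene, had a UMI in 5.66% and 5.59% of cells at median depths of 17061 and 16863 UMIs. Schwann precursor-like cells (277 and 292 CPM) and horizontal-like cells (269 and 284 CPM) came next and their intervals overlapped. In the mutant the interval of the Schwann precursor-like cells also overlapped that of the progenitors. Among the neuronal classes, retinal ganglion cell-like cells had 194 and 195 CPM, amacrine-like cells 180 and 176 CPM and photoreceptor precursor-like cells 132 and 115 CPM. Neurogenic progenitor-like cells, which are leaving the cell cycle, had 167 and 160 CPM. All neural classes therefore lay above the RPE-like cells, at 69.0 and 82.3 CPM, and above the mesenchyme, at 50.1 and 60.4 CPM. The lowest levels were in erythroid-like cells, at 12.2 and 8.02 CPM, and in control surface epithelium-like cells, at 6.82 CPM. A melanin gene list that the study drew partly from these libraries has Cdh2 in its text and Cdh3 in its table. The study reports that list as downregulated in mutant RPE over its time points. In the RPE-like cells of this age Cdh2 had a ratio of mutant to control of 1.19 (0.971 to 1.46) and Cdh3 of 0.896 (0.751 to 1.07). Both intervals include 1.

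Cdh4 (R-cadherin, first described in retina; ENSMUSG00000000305, chr2:179442431-179899373, plus strand) shared its leading class with Cdh2. Retinal progenitor-like cells had 2571 and 3533 UMIs, or 97.6 CPM (93.9 to 101) and 96.7 CPM (93.5 to 99.9), in 56.2% and 53.6% of cells. After thinning these shares were 17.4% and 18.2%, beside 0.422% and 0.484% of erythroid-like cells. Neurogenic progenitor-like cells had 54.6 and 48.2 CPM, periocular mesenchyme-like cells 34.4 and 32.6 CPM, ganglion cell-like cells 24.9 and 19.5 CPM, and RPE-like cells 8.73 and 6.90 CPM. Within the progenitors Cdh4 varied by cluster in the same order in both libraries, from 62.5 and 66.0 CPM in cluster 22 to 118 and 111 CPM in cluster 8. Within the neurogenic progenitors it reached 85.7 and 66.1 CPM in cluster 9 and 22.5 and 21.5 CPM in cluster 10. A sharp difference in level between neighbouring progenitor states was thus present in each library by itself.

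Of the other 4 members, Cdh5 (VE-cadherin, the adhesion protein of endothelial junctions; ENSMUSG00000031871, chr8:104101625-104144511, plus strand) was nearly private to endothelial-like cells. They held 1766 control and 1337 mutant UMIs, or 787 CPM (751 to 825) and 839 CPM (794 to 885), which was 97.3% and 95.02% of all Cdh5 UMIs. A UMI was present in 79.9% and 81.0% of cells, and in 75.6% and 86.0% after thinning, with 41 and 26 cells left out. The next highest level was 6.04 CPM in control horizontal-like cells, from 5 UMIs in 1 cell, and 10.1 CPM in mutant immune-like cells, from 27 UMIs in 3 cells.

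Cdh11 (OB-cadherin, named after osteoblasts and typical of mesenchyme; ENSMUSG00000031673, chr8:102632095-102785642, minus strand) was led by periocular mesenchyme-like cells with 8061 and 5629 UMIs, 323 CPM (316 to 330) and 301 CPM (294 to 309). It was found in 87.2% and 87.7% of those cells, and in 42.1% and 41.7% after thinning, beside 4.44% and 4.90% of erythroid-like cells without thinning. This lead is among named classes only. Unnamed clusters 3 and 4 lay higher, at 443.5 and 419.3 CPM and at 555.5 and 528.8 CPM. All unnamed cells together held 40.0% and 33.1% of Cdh11 UMIs. In the mutant, retinal progenitor-like cells held more Cdh11 UMIs than mesenchyme-like cells, 29.1% against 27.9%. Ciliary margin-like cells had 202 and 178 CPM and retinal progenitor-like cells 172 and 161 CPM, with overlapping intervals. Along the neural classes Cdh11 was at 59.0 and 54.9 CPM in neurogenic progenitor-like cells, 81.7 and 74.7 CPM in amacrine-like cells and 27.6 and 22.8 CPM in photoreceptor precursor-like cells. Mesenchyme was itself uneven, with 503 and 475 CPM in cluster 5 (led by Mfap5, Osr2 and Foxl2), 172 and 188 CPM in cluster 6 (led by the tendon genes Scx and Tnmd) and 230 and 218 CPM in cluster 7 (led by Matn4 and Kera). The mesenchymal cadherin was therefore also a cadherin of the neural retina's dividing cells.

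**Figure D2:**
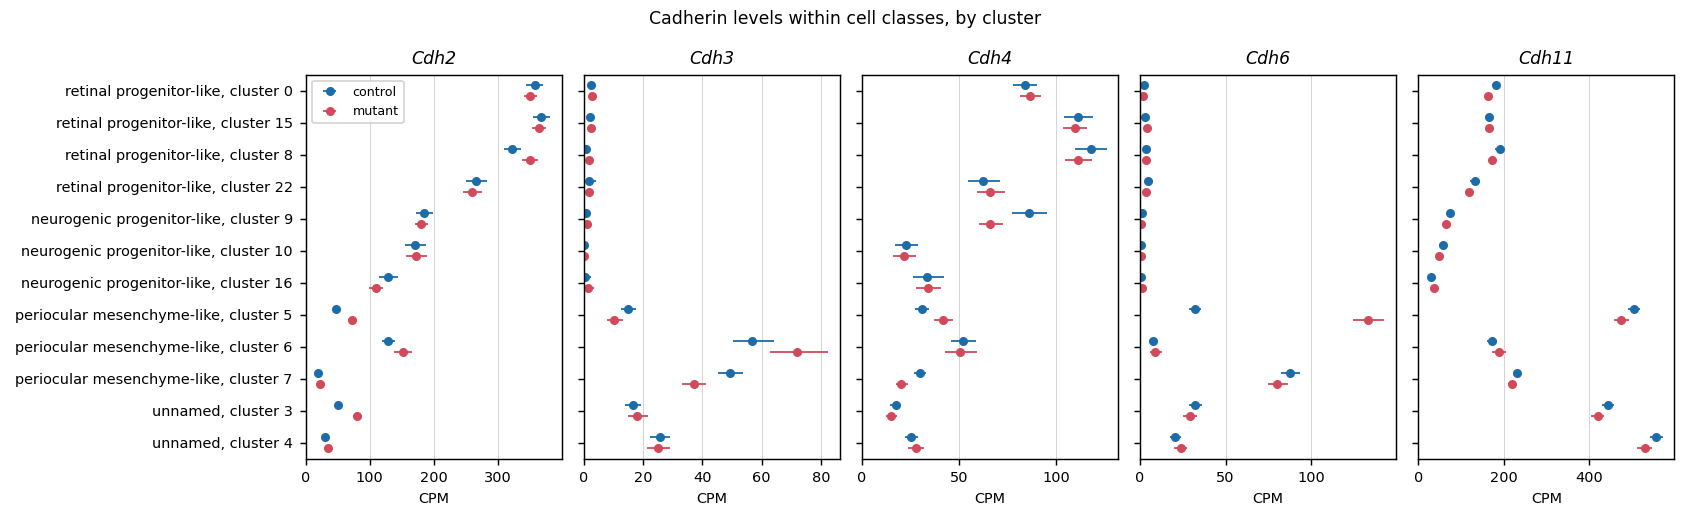
Levels of 5 cadherins in CPM on linear axes in the clusters of 3 classes and in unnamed clusters 3 and 4, with control in blue, mutant in red and 95% Poisson counting intervals as bars. Cdh6 in mesenchyme cluster 5 is at 31.9 CPM (control) and 133 CPM (mutant), while in clusters 6 and 7 the libraries lie close together.

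Cdh6 (K-cadherin, a marker of neural crest derivatives; ENSMUSG00000039385, chr15:13028701-13173675, minus strand) was led by Schwann precursor-like cells, glial progenitors of the neural crest. The 37 control cells had 313 UMIs (545 CPM, 486 to 608) and the 38 mutant cells 245 UMIs (394 CPM, 346 to 446), and 97.3% and 94.7% of cells had a UMI. No ratio was formed for this class, which had fewer than 50 cells in each library. It held 13.1% and 9.72% of all Cdh6 UMIs, whereas periocular mesenchyme-like cells held 53.4% and 64.4%. Ciliary margin-like cells had 136 and 94.5 CPM. These cells were led by Cartpt and Pax2, a factor of the optic stalk, beside the ciliary margin marker Zic1, so the class name is uncertain. Periocular mesenchyme-like cells had 51.2 and 86.8 CPM, RPE-like cells 13.2 and 8.49 CPM and retinal progenitor-like cells 3.00 and 3.04 CPM. The intervals of ciliary margin-like and retinal progenitor-like cells lay far from each other in both libraries. Schwann precursor markers, of the class with the highest Cdh6 level, also differed between these classes. They summed to 730.5 and 363 CPM in ciliary margin-like cells, with 3 of 7 at 0 UMIs, and 11.2 and 14.1 CPM in progenitor-like cells, with 0 and 1 at 0. Their part in the Cdh6 level was not tested.

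Cdh8 (a type II member of the nervous system; ENSMUSG00000036510, chr8:99024471-99416471, minus strand) was the rarest member beside Cdh1, with 163 control and 156 mutant UMIs in all kept cells. Neurogenic progenitor-like cells had 52 and 51 UMIs, or 5.63 CPM (4.21 to 7.38) and 4.11 CPM (3.06 to 5.40). Their share of cells with a UMI was 4.37% and 3.76%, and 0.843% and 0.867% after thinning, against 0 and 1 UMI in all erythroid-like cells. Within them cluster 16 was highest, with 10.5 and 8.96 CPM. Retinal progenitor-like cells had 2.32 and 1.73 CPM, and at 0 UMIs in both libraries were photoreceptor precursor-like, horizontal-like, ciliary margin-like, melanocyte-like, Schwann precursor-like and endothelial-like cells. An antisense gene, Gm15679, overlaps the last part of Cdh8, and Cell Ranger keeps the 3′ tags of the strands apart.

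The promoters of Cdh6 and Cdh8 are shown because they were the 2 members of the 8 that the RefSeq promoter table (GRCm38.p6) held. Their leading classes differ, Schwann precursor-like cells for Cdh6 and neurogenic progenitor-like cells for Cdh8. Each run covers 250 bases before and 50 bases after the start of the gene on the coding strand, at chr15:13173626-13173925 for Cdh6 and chr8:99416422-99416721 for Cdh8, both on the minus strand. Capitals mark E-boxes, CANNTG (the same on both strands), the motif read by basic helix-loop-helix factors. Its form CACCTG, which also reads CAGGTG on the other strand, is read by the Snail and ZEB repressors.
Cdh6: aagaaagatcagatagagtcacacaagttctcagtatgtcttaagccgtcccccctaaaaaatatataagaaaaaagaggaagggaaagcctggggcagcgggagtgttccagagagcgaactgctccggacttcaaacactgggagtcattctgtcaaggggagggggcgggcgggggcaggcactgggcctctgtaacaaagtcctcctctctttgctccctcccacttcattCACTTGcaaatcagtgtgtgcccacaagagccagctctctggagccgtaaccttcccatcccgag
Cdh8: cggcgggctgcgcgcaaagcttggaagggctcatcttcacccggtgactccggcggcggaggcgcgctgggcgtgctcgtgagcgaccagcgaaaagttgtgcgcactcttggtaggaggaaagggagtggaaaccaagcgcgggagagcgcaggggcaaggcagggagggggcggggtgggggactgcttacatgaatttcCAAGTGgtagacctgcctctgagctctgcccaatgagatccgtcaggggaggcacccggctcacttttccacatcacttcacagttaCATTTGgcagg
The Cdh6 promoter held 1 E-box, with its first base at -15 counted from 0 at the start base, and the Cdh8 promoter 2, at -48 and 39. Neither held CACCTG on either strand. Over 32851 promoters of this length, 72.3% held CANNTG and 20.2% held CACCTG, so these matches describe the windows and nothing further was read from them. Base composition differed, at 53.0% G and C for Cdh6 and 62.3% for Cdh8.

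The genes whose pattern was most like that of each member were found by Pearson's r of log2(CPM + 1) over 28 points, which were 14 classes in 2 libraries. The points share libraries and class depth, and r is given as a description. Aldh3b2 was nearest to Cdh1 (r = 0.989), followed by Cd164l2 and Fxyd3. The endothelial genes Esam (r = 0.987), Tie1 and Sox17 were nearest to Cdh5, and Mme (r = 0.953) and Col8a1 to Cdh3. Lower values were found for Cdh2 with Sorbs2 (0.937), Syt11 and Wdr54, for Cdh11 with Zc3h12b (0.908), Sdk2 and Gpc6, and for Cdh6 with Adamts15 (0.884), Rspo3 and Adamts6. Cdh4 was nearest to Ahi1 (0.880), Csrp2 and Neto2, and Cdh8 to Acvr1c (0.811), Sp8 and Lhx9. The members restricted to 1 class had the closest companions.

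The mutant library was then set against the control within each class, to ask where cadherin levels differed with the deletion of Myrf. A difference was called at 1.5-fold or more with an interval of the ratio that excluded 1, for genes that reached 20 UMIs in the libraries combined, in the 14 classes with at least 50 cells in each library. Of all genes so compared, 2.68% were called in retinal progenitor-like cells, 2.82% in neurogenic progenitor-like, 4.22% in photoreceptor precursor-like, 3.30% in retinal ganglion cell-like, 3.68% in amacrine-like, 5.16% in horizontal-like and 6.52% in ciliary margin-like cells. The shares were 5.90% in RPE-like, 5.68% in periocular mesenchyme-like, 5.96% in muscle-like, 5.24% in endothelial-like, 13.1% in erythroid-like, 6.42% in immune-like and 7.82% in surface epithelium-like cells. For the cadherins 57 comparisons could be made, of which 9 were called higher and 3 lower in the mutant, 21.1% in all. The 12 calls lay in horizontal-like, ciliary margin-like, ganglion cell-like, mesenchyme-like, muscle-like, erythroid-like, immune-like and surface epithelium-like cells, as the plot of ratios shows. None was made in RPE-like, retinal progenitor-like, neurogenic progenitor-like, photoreceptor precursor-like, amacrine-like or endothelial-like cells.

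**Figure D3:**
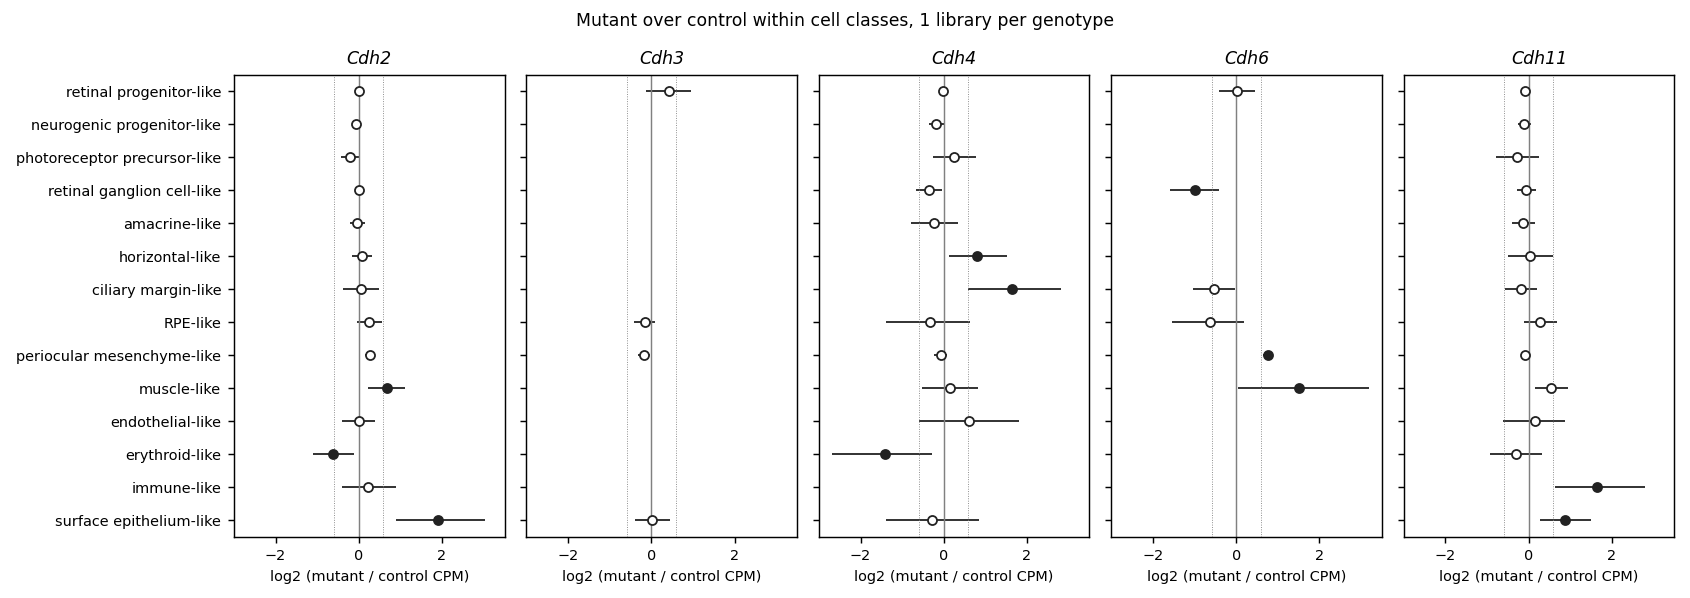
Log2 ratio of mutant to control CPM for 5 cadherins in up to 14 cell classes, with 95% exact counting intervals as bars and dotted lines at 1.5-fold. Filled circles are called differences, and classes without a circle had fewer than 20 UMIs. Cdh2 and Cdh11 lie near 0 in the neural classes, and the filled circle of Cdh6 in mesenchyme has the narrowest interval of the called differences.

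RPE-like cells, which held 293 of the 422 control Myrf UMIs, had 0 of 5 cadherins called, with 5.90% of all genes called there. The leading RPE cadherin Cdh3, at 113 and 101 CPM, had a ratio of 0.896 (0.751 to 1.07). Cdh2, at 69.0 and 82.3 CPM, had a ratio of 1.19 (0.971 to 1.46), and Cdh11, at 38.1 and 46.2 CPM, a ratio of 1.21 (0.918 to 1.59). Cdh4 had 33 and 13 UMIs and a ratio of 0.791 (0.382 to 1.54). On the log2 scale this was -0.34, which turned to 0.74 and was called higher with no doublets removed, and was 0.70 but not called in cells with Xist. Cdh6 had 50 and 16 UMIs and a ratio of 0.642 (0.341 to 1.15). The wide intervals of Cdh4 and Cdh6 include both no difference and a lower level by more than 1.5-fold. That of Cdh4 also includes a higher level by more than 1.5-fold. The type I members had a median log2 ratio of -0.16 and the type II members of -0.18, beside -0.07 over all genes compared in the class.

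The depth of the RPE-like cells moved with these ratios, in a split made after the data had been seen. In cells of more than 2000 and up to 20000 UMIs (180 control and 87 mutant cells) Cdh2 was at 55.8 and 92.5 CPM (ratio 1.66, 1.22 to 2.23) and Cdh11 at 17.2 and 40.4 CPM (ratio 2.35, 1.42 to 3.90). In the 65 and 36 cells over 20000 UMIs, Cdh2 was at 84.8 and 68.6 CPM and Cdh11 at 63.5 and 51.5 CPM, so that the direction was the opposite, with ratios of 0.809 (0.594 to 1.09) and 0.811 (0.565 to 1.15) whose intervals include 1. Cdh6 had 33 and 4 UMIs in these deepest cells, 19.0 and 4.29 CPM, a ratio of 0.225 (0.0580 to 0.633), and 15 and 4 cells held them. In the middle group its ratio was 1.43 (0.607 to 3.24). Cdh3 was at 135 and 113 CPM in the middle group (ratio 0.838, 0.657 to 1.06). In the deepest cells it was at 87.1 and 95.4 CPM (ratio 1.095, 0.833 to 1.43), and both intervals include 1. In the 122 and 84 cells of 2000 UMIs or fewer, Cdh3 had 18 and 4 UMIs, or 136 and 46.5 CPM (ratio 0.342, 0.0841 to 1.04), Cdh2 had 7 and 11 UMIs (ratio 2.42, 0.855 to 7.35) and Cdh11 had 1 and 4 UMIs. With cells over 20000 UMIs removed, Cdh2 (log2 ratio 0.78) and Cdh11 (1.31) would be called higher. Without cells that carried UMIs of at least 3 markers of another class, which left 155 and 91 cells, Cdh2 would be called higher (1.198) and Cdh3 lower (-1.68). The sums of foreign markers differed too. Retinal progenitor markers summed to 716 and 974.5 CPM in RPE-like cells, erythroid markers to 6147 and 15248 CPM and mesenchyme markers to 576 and 525 CPM, with 0 progenitor, 1 erythroid and 0 mesenchyme markers at 0 UMIs in each library. Their part in the ratios was not tested.

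**Figure D4:**
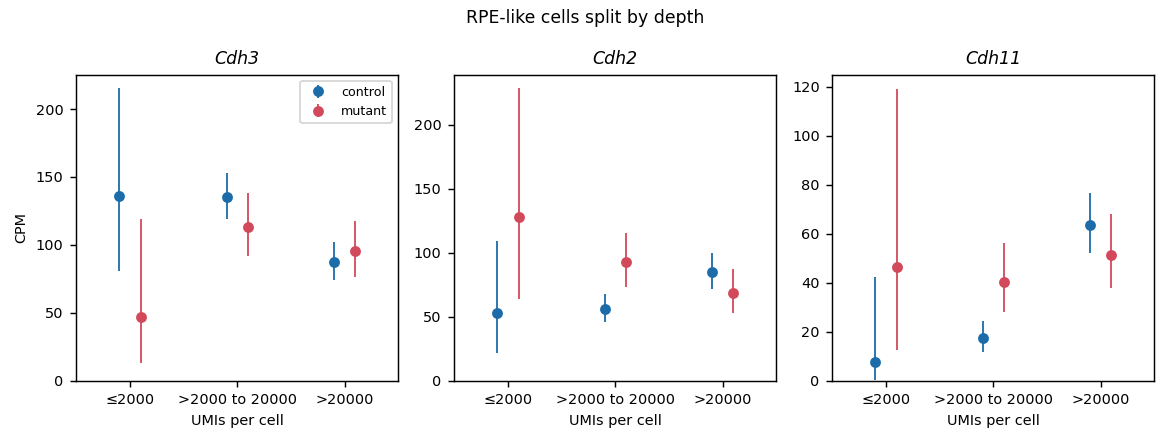
Levels of Cdh3, Cdh2 and Cdh11 in CPM on linear axes in RPE-like cells split by UMIs per cell, with control in blue, mutant in red and 95% Poisson counting intervals as bars. In the middle group the intervals of the libraries lie apart for Cdh2 and Cdh11, and in the shallowest and the deepest cells they overlap for all 3 genes.

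The call with the narrowest interval was Cdh6 in periocular mesenchyme-like cells, where 5.68% of all genes were called. Cdh6 had 1279 UMIs in 1832 control cells and 1622 UMIs in 1308 mutant cells, 51.2 CPM (48.5 to 54.1) and 86.8 CPM (82.6 to 91.1), a ratio of 1.69 (1.57 to 1.82), and so was higher in the mutant. A UMI was present in 29.6% and 37.7% of cells, and in 7.48% and 11.8% after thinning, which left out 14 and 19 cells. The other mesenchymal cadherins showed ratios of 0.933 for Cdh11 (0.901 to 0.965), 0.948 for Cdh4 (0.853 to 1.05), 0.889 for Cdh3 (0.802 to 0.985) and 1.21 for Cdh2 (1.11 to 1.31), all within 1.5-fold. Retinal progenitor markers summed to 224 and 361 CPM in this class, neurogenic progenitor markers to 103 and 197 CPM and its own markers to 22100 and 29627 CPM, with 0 markers of these lists at 0 UMIs. Their part in the Cdh6 ratio was not tested.

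The higher level of Cdh6 lay in 1 of 3 mesenchyme clusters, which were examined after the class result had been seen. In cluster 5 Cdh6 had 303 UMIs in 779 control cells and 855 UMIs in 559 mutant cells, 31.9 and 133 CPM, a ratio of 4.18 (3.66 to 4.78). Cluster 6 had 7.60 and 8.60 CPM and cluster 7 had 87.6 and 80.2 CPM, with ratios of 1.13 (0.656 to 1.93) and 0.915 (0.830 to 1.01). Both of the larger fine groups of cluster 7 had Cdh6 below 1, at 0.858 (0.758 to 0.971) in the group led by A2m and 0.696 (0.556 to 0.865) in that led by Spp1. Within cluster 5 the RNA was concentrated in some cells: 14.6% of control and 29.2% of mutant cells had a UMI, and 6 and 29 cells had 10 or more. A finer clustering set apart a group within cluster 5 led by Slc26a7, Nts and Bmp3. That group held 120 control cells with Cdh6 at 158 CPM and 169 mutant cells with Cdh6 at 436 CPM, a ratio of 2.76 (2.36 to 3.23). In the largest other group of cluster 5, with 622 control and 368 mutant cells, the levels were 10.7 and 23.1 CPM (ratio 2.17, 1.61 to 2.94). Cdh6 was not the only cadherin that differed there. Cdh2 in cluster 5 was at 46.6 and 72.9 CPM (ratio 1.56, 1.37 to 1.78), with a ratio of 2.09 (1.5 to 2.95) in the group led by Slc26a7, and Cdh4 had a ratio of 1.35 (1.14 to 1.60) in cluster 5 and 1.58 (1.32 to 1.89) in the largest other group. In cluster 7 Cdh4 was lower in the mutant, at 29.7 and 20.3 CPM (ratio 0.684, 0.568 to 0.822), and in the group led by A2m its ratio was 0.487 (0.345 to 0.683). Cdh3 was at 14.9 and 10.3 CPM in cluster 5 (ratio 0.688, 0.506 to 0.927). Both the number of cells of the group led by Slc26a7 and the Cdh6 level within it were thus higher in the mutant, and an uneven share of this region of the eye in the 2 pools cannot be told apart from the genotype.

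Within cluster 5 the ratio was 4.36 in cells of 20000 UMIs or fewer, 4.15 in cells with at most 5% mitochondrial UMIs, 5.37 in cells with Xist but without Y-linked UMIs and 4.73 without the 5 cells richest in Cdh6. The class ratio depended on which clusters the class took in. Over all mesenchyme clusters, unnamed clusters 3 and 4 included, it was 1.52 (1.42 to 1.62). The log2 ratio of the class, 0.76, was 0.52 at the 5% mitochondrial limit and 0.27 with no doublets removed, and in neither was it called. With no doublets removed, 101 control and 158 mutant cells of cluster 5, with Cdh6 at 176 and 434 CPM, lay in no named class.

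Cdh6 was lower in the mutant in retinal ganglion cell-like cells, the projection neurons of the retina, where 3.30% of all genes were called. It had 66 UMIs (9.67 CPM) in 416 control cells and 43 UMIs (4.85 CPM) in 523 mutant cells, a ratio of 0.502 (0.333 to 0.748), called in 7 of 12 alternatives. The top 5 cells held 66.7% of the control UMIs and 34.9% of the mutant UMIs, and without them the log2 ratio was -0.03. In cluster 20 the 23 control UMIs came from 2 cells and the mutant had 1 UMI, while in cluster 24 the levels were 15.2 and 12.1 CPM. The shares of cells with a UMI, 5.29% and 4.97%, lay close together. Mesenchyme markers summed to 100 and 139 CPM and Schwann precursor markers to 23.6 and 32.6 CPM in this class, with 0 and 1 of 10 and 1 and 4 of 7 at 0 UMIs, and their part was not tested.

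Cdh4 was higher in the mutant in a pair of small classes, each called in 6 of 12 alternatives. Neither call was made with no doublets removed, at resolution 0.5 or in cells with Xist but without Y-linked UMIs. With no doublets removed, at resolution 0.5 and with each library clustered alone, no cells were named horizontal-like, so that comparison was not possible. Both calls were also absent with cells over 2000 UMIs removed, which left 4 and 7 horizontal-like and 3 and 1 ciliary margin-like cells. They were absent too without cells with markers of another class, which left 14 and 23 horizontal-like and 10 and 4 ciliary margin-like cells. The log2 ratio stayed above 0 wherever it had a value, from 0.75 to 1.64 in 8 alternatives for horizontal-like cells and from 0.69 to 2.91 in 9 for ciliary margin-like cells. In ciliary margin-like cells, where 6.52% of all genes were called, it had 10 UMIs in 56 control cells and 35 UMIs in 52 mutant cells, 17.2 and 53.4 CPM, a ratio of 3.097 (1.501 to 7.01). The share of cells with a UMI was 8.93% and 32.7%, and after thinning 3.77% and 5.88%, and 5 control cells held all of the control UMIs. Retinal progenitor markers summed to 1919 and 1587 CPM there, with 0 of 6 at 0 UMIs, neurogenic progenitor markers to 188 and 398 CPM, with 1 and 0 of 8 at 0 UMIs, and photoreceptor precursor markers to 24.1 and 56.4 CPM, with 2 of 7 at 0 UMIs. Their part in the ratio was not tested. In horizontal-like cells, with 5.16% of genes called, Cdh4 had 25 UMIs in 132 control cells and 76 UMIs in 219 mutant cells, 30.2 and 52.7 CPM, a ratio of 1.75 (1.10 to 2.87). A UMI was found in 9.85% and 21.9% of cells. Retinal progenitor markers summed to 139 and 160 CPM and neurogenic progenitor markers to 616 and 740 CPM in that class, with 0 of 6 and 0 of 8 at 0 UMIs. Photoreceptor precursor markers summed to 104 and 191 CPM, with 1 and 0 of 7 at 0 UMIs, and erythroid markers to 5392 and 423 CPM, with 3 of 9 at 0 UMIs, and the part of these lists was not tested. Other members of these classes had ratios within 1.5-fold, with Cdh2 at 1.03 and 1.05 and Cdh11 at 0.885 and 1.03.

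The remaining called differences lay in classes where the member was low. In surface epithelium-like cells, with 7.82% of genes called, Cdh2 had 10 and 48 UMIs (6.82 and 25.3 CPM, ratio 3.71, 1.86 to 8.23), of which 5 cells held 100% and 68.8%. Cdh11 had 33 and 78 UMIs there (22.5 and 41.1 CPM, ratio 1.83, 1.202 to 2.84), and each of these calls was made in 9 of 12 alternatives. Neurogenic progenitor markers summed to 173 and 537 CPM in that class, with 0 of 8 at 0 UMIs, retinal progenitor markers to 451 and 541 CPM, with 0 of 6 at 0 UMIs, and mesenchyme markers to 276 and 164 CPM, with 0 of 10 at 0 UMIs. Retinal ganglion cell markers summed to 12.3 and 76.5 CPM and photoreceptor precursor markers to 34.8 and 103 CPM, with 2 and 3 of 7 undetected among control cells and 0 among mutant cells. The epithelial cadherins themselves had ratios of 0.898 (0.692 to 1.17) for Cdh1 and 1.02 (0.762 to 1.37) for Cdh3.

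In immune-like cells, with 6.42% of genes called, Cdh11 had 10 and 46 UMIs (5.51 and 17.2 CPM, ratio 3.11, 1.55 to 6.92) and Cdh5 had 2 and 27 UMIs (1.10 and 10.1 CPM, ratio 9.14, 2.30 to 79.3), all 27 of them in 3 cells. Each of these calls was made in 6 of 12 alternatives, and both were lost with no doublets removed and in cells with Xist but without Y-linked UMIs. Endothelial markers summed to 45.2 and 61.6 CPM there, with 1 of 10 at 0 UMIs in each library, mesenchyme markers to 198 and 226 CPM, with 0 and 1 of 10 at 0 UMIs, retinal progenitor markers to 165.5 and 281 CPM, with 0 of 6 at 0 UMIs, and retinal ganglion cell markers to 160 and 52.6 CPM, with 0 of 7 at 0 UMIs. Erythroid markers summed to 765 and 11378 CPM, with 3 and 0 of 9 at 0 UMIs, and the free RNA estimate over all cells would give 2.28 and 32.3 CPM of Cdh11, in the mutant more than was measured, beside 0.731 CPM in the mutant for the trimmed estimate. In muscle-like cells, with 5.96% of genes called, Cdh2, which works in myoblast adhesion, had 75 and 97 UMIs (19.8 and 31.4 CPM, ratio 1.59, 1.16 to 2.17), and Cdh6 had 6 and 14 UMIs (1.58 and 4.53 CPM, ratio 2.86, 1.03 to 9.09), called in 10 and 5 of 12 alternatives. Mesenchyme markers summed to 913 and 1489 CPM in muscle-like cells, with 0 of 10 at 0 UMIs, retinal ganglion cell markers to 58.5 and 138 CPM and photoreceptor precursor markers to 20.8 and 62.4 CPM, with 0 of 7 of each at 0 UMIs, and erythroid markers to 1012 and 4880 CPM, with 2 of 9 at 0 UMIs. The free RNA estimate over all cells would give 2.06 and 14.5 CPM of Cdh2 in muscle-like cells, and the trimmed estimate 0.504 and 0.542 CPM. With the former subtracted, the log2 ratio of Cdh2 went from 0.67 to 0.038. In erythroid-like cells, with 13.1% of genes called, Cdh2 had 100 and 56 UMIs (12.2 and 8.02 CPM, ratio 0.654, 0.463 to 0.917) and Cdh4 had 28 and 9 UMIs (3.43 and 1.29 CPM, ratio 0.376, 0.156 to 0.819), each called lower in 4 of 12 alternatives. The erythroid clusters went opposite ways for Cdh2, at 25.4 and 10.8 CPM in cluster 13 (ratio 0.428, 0.276 to 0.646) and 1.97 and 5.95 CPM in cluster 18 (ratio 3.02, 1.36 to 7.39), and cluster 18 held 2 and 3 Cdh4 UMIs. Retinal progenitor markers summed to 159 and 79.9 CPM in these cells, with 0 of 6 at 0 UMIs, and neurogenic progenitor markers, of a class that also holds both cadherins, to 78.8 and 231.7 CPM, with 0 of 8 at 0 UMIs. The former were lower and the latter higher in the mutant. The part of these foreign markers in the ratios was not tested.

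In the dividing and neuronal classes of the retina the ratios of Cdh2, Cdh4 and Cdh11 lay within 1.5-fold, except that of Cdh4 in horizontal-like cells. Cdh2 in retinal progenitor-like cells had a ratio of 1.01 (0.983 to 1.04), Cdh4 of 0.991 (0.942 to 1.04) and Cdh11 of 0.932 (0.897 to 0.970). The first 2 of these intervals leave room for differences of a few percent only, as far as counting goes. In neurogenic progenitor-like cells the ratios were 0.953 for Cdh2, 0.884 for Cdh4, 0.9304 for Cdh11 and 0.729 for Cdh8 (0.486 to 1.09), and in amacrine-like cells they lay between 0.851 and 0.976. Photoreceptor precursor-like cells had 0.868 for Cdh2 and 1.19 for Cdh4. Cdh4 was below 1 with an interval that excluded 1, although under 1.5-fold, in ganglion cell-like cells (0.784, 0.630 to 0.974), in neurogenic progenitor-like cells (0.784 to 0.997) and in their cluster 9 (0.771, 0.669 to 0.888). In endothelial-like cells Cdh5 had a ratio of 1.07 (0.992 to 1.15).

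Other genes of cadherin adhesion were read from lists of 10 further classical cadherins, 14 catenins and junction partners and 9 transcription factors of epithelial and mesenchymal states. In RPE-like cells 1 of 11 catenins and partners with enough UMIs was called, Arvcf, a p120-catenin relative, with 30 and 27 UMIs, 7.93 and 14.3 CPM and a ratio of 1.81 (1.03 to 3.14). Of all genes compared in the class 5.90% were called, and at the 5% mitochondrial limit 0 catenins and partners were called. The median log2 ratio of that list was -0.14, beside -0.07 over all genes. Of the transcription factors 0 of 5 were called, with a median of -0.24, and of the other cadherins 0 of 1, which was Cdh20 with 10 and 12 UMIs. Ctnnb1, which encodes β-catenin, was highest in melanocyte-like cells (930 and 838 CPM), lowest in erythroid-like cells (14.0 and 15.47 CPM) and at 375 and 338 CPM in RPE-like cells. Ctnna1, for α-catenin, was highest in endothelial-like cells (219 and 223 CPM) and at 114 and 105 CPM in RPE-like cells. The mesenchymal factor Twist1 had 715 and 620 CPM in periocular mesenchyme-like cells and 14.5 and 11.7 CPM in RPE-like cells. Zeb2 was highest in Schwann precursor-like cells in the control (899 CPM) and in horizontal-like cells in the mutant (684 CPM). Of cadherins outside the 8 members, Cdh20 led in retinal progenitor-like cells (28.5 and 31.6 CPM), and Cdh10 in Schwann precursor-like cells (81.8 and 67.5 CPM), the leading class of Cdh6. Cdh10 is thus a further type II cadherin at high level in that crest-derived class.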

How the data were processed

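Single-cell 3′ RNA-seq of eye cups was analysed, with 1 control (Myrf fl/fl) and 1 mutant (Rx>cre Myrf fl/fl) library, grouped by the labelled genotype. The values deposited by the authors were UMI counts for 31053 genes in each cell, not normalized, from reads aligned to mm10 with Cell Ranger (version 7.1.0 in the submitters' processing notes, which also name Seurat 4.1.1, and 3.1.0 in the matrix headers).

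Cells with at least 200 genes and at most 15% mitochondrial UMIs were kept. Scrublet (scanpy 1.11.5) removed 3.55% of control and 3.40% of mutant barcodes that passed these filters as doublets, where 9.55% and 10.4% would be expected at 0.8% per 1000 barcodes, so doublets remained. An upper limit of 2000 UMIs, which the methods state, was only an alternative, since 79.1% of control barcodes exceeded it. Both libraries were clustered together on 1878 of 2000 variable genes (30 components, 15 neighbours, Leiden resolution 1.0), leaving out members, list genes and naming markers. Clusters were named from marker lists, with score limits set after the data were seen, and the names can differ from the study's. Melanocyte-like and Schwann precursor-like cells had too few cells for a ratio.

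Members, gene lists and markers were chosen with earlier results of these data known. Named list genes were those called in RPE-like cells and the 2 with the most UMIs. For likeness, the 3 genes with the highest r among genes with at least 200 UMIs were named, except 1 gene for Cdh3 that is not reported here. UMIs were summed per class and library. Sums carry exact Poisson, shares Clopper-Pearson and ratios conditional binomial 95% intervals (scipy 1.17.1), which assume independent UMIs. Calculations were tested on simulated counts. Alternatives covered filters, clustering, free RNA, sex, cell weighting and scaling. Libraries of other ages were not analysed here.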

Additional observations from a re-analysis of the deposited data

Results flagged for a closer look

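Cdh2, Cdh4 and Cdh6 had called ratios of mutant to control in opposite directions in different classes; the difference between classes was not tested in any of them. Cdh2 was higher in muscle-like cells (ratio 1.59) and surface epithelium-like cells (3.71) and lower in erythroid-like cells (0.654). Cdh4 was higher in horizontal-like cells (1.75) and ciliary margin-like cells (3.097) and lower in erythroid-like cells (0.376). Cdh6 was higher in periocular mesenchyme-like cells (1.69) and muscle-like cells (2.86) and lower in retinal ganglion cell-like cells (0.502).

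Cdh11 was high in clusters that no comparison between classes used. Unnamed cluster 3, led by Spp1, Mgp and Rgs5, had 443.5 control and 419.3 mutant CPM, and unnamed cluster 4, led by Crym, Tagln and Cxcl12, had 555.5 and 528.8 CPM, both above the 323 and 301 CPM of the named mesenchyme class. Together with the other unnamed clusters they held 40.0% of control and 33.1% of mutant Cdh11 UMIs.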

How the results depend on the processing

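Of the values that answer a comparison, 77 kept their size or count under an alternative and 34 moved. The leading class was the same for 4 of 8 cadherins in each library with cells over 2000 UMIs removed, where too few cells of the leading classes of the others were left. Without cells with markers of another class it was the same for 7 in the control and 6 in the mutant, and for 7 in the mutant both in cells with Xist and with each library clustered alone. RPE-like cells had no cadherin called in 8 of 11 alternatives, 1 with no doublets removed (Cdh4), 2 with cells over 20000 UMIs removed and 2 without cells with markers of another class. Over all classes there were 6 calls with no doublets removed, of which 4 were among the 12, 1 with cells over 2000 UMIs removed (0 of the 12), 4 without cells with markers of another class (1 of the 12, Cdh6 in mesenchyme) and 6 in cells with Xist but without Y-linked UMIs (5 of the 12). With no doublets removed no cells were named amacrine-like or horizontal-like, so no call could be made in those classes.

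In RPE-like cells the log2 ratio moved for each member, and the cause was not tested. Cdh2 went to 0.78 and 1.27 with cells over 20000 and over 2000 UMIs removed, 1.198 without cells with markers of another class, -0.30 with free RNA subtracted and 0.87 with each cell weighed the same. Cdh3 went to -0.46 at a mitochondrial limit of 5%, -1.55 with cells over 2000 UMIs removed, -0.56 at resolution 2.0, -1.68 without cells with markers of another class, 0.13 with free RNA subtracted and -0.80 with each cell weighed the same. Cdh4 went to 0.74 with no doublets removed, 0.70 in cells with Xist and -1.51 with each cell weighed the same, and Cdh6 to 0.60 with cells over 20000 UMIs removed, -1.58 with free RNA subtracted and -1.89 without the 5 richest cells. Cdh11 went to -0.28 at the 5% limit, -0.13 with no doublets removed, 1.31 with cells over 20000 UMIs removed, 1.48 without cells with markers of another class, -2.47 with free RNA subtracted and 1.23 with each cell weighed the same. The free RNA estimate behind these values used all cells and reached 29.7%. With the 5% of cells richest in haemoglobin left out, an alternative chosen after seeing the data, none of the main results changed. At the 5% mitochondrial limit 0 catenins and 1 transcription factor were called in RPE-like cells.

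Called ratios that changed direction, as log2 values, were Cdh6 in retinal ganglion cell-like cells (0.29 at the 5% limit) and in muscle-like cells (-0.84 with each cell weighed the same), Cdh4 in erythroid-like cells (0.18 at resolution 0.5), Cdh11 in immune-like cells (-0.54 with no doublets removed) and Cdh11 in surface epithelium-like cells (-0.23 at the 5% limit). Cdh2 in erythroid-like cells reversed under 4 alternatives, to 0.45 with cells over 20000 UMIs removed, 0.98 at resolution 0.5, 0.52 with each library clustered alone and 0.061 without cells with markers of another class. With each library clustered alone no mutant cluster was named RPE-like, so no RPE comparison was made. Of the 12 settings, Cdh2 in muscle-like cells was called in 10 and Cdh6 in mesenchyme in 9, and Cdh4 in erythroid-like cells in 4. Free RNA subtraction is not among these 12, and with it the log2 ratio of Cdh2 in muscle-like cells was 0.038.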
